A study of Drosophila melanogaster with 12 samples.

Results

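The duplicated cytoplasmic ribosomal protein genes of the fly germline were followed in ovaries, each tissue-restricted copy beside its general copy in the same library. The pairs described were RpS19b with RpS19a, RpL22-like with RpL22, RpS10a with RpS10b and RpL37-2 with RpL37-1. They were found by FlyBase identifier among the 17023 genes of the count files, and 7 of these 8 genes were present. RpS10b was not analysed here, because the identifier that the reference gives it is not among those of the files, so 3 pairs could be compared copy with copy. The members were chosen by measured values of these same libraries: RpS19b, RpL22-like and RpL37-2 were among the genes higher in knockdowns than in the NGVP16 controls. Their levels in these sets are therefore given as a description, with no test.

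Poly(A) mRNA from Drosophila melanogaster ovaries was counted in 10 libraries, in 5 sets of n = 2, all from flies dissected 1 to 3 days after eclosion. In 3 of the sets SETDB1, wde or Nup154 was labelled as knocked down in the germline (GKD). SETDB1, encoded by egg, is a histone H3 lysine 9 methyltransferase, its cofactor is Wde, and Nup154, which the series uses as a developmental control, belongs to the nuclear pore. The other sets were young controls, a pair whose titles name NGVP16 and a pair whose titles read DcrVirgin and VIRGIN, called the virgin pair here. The titles of the virgin pair differ and bear no replicate number, so its libraries may not be replicates of 1 condition. Apart from what the names NGVP16 and DcrVirgin in control titles may stand for, the labels give no driver or RNAi line. They give no number of animals for any set, and nothing in them says that replicates came from separate flies. The spread between replicates may therefore be technical.

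A ribosome carries 1 copy of nearly every ribosomal protein, and most of these proteins are made from a single gene. In flies some of the genes have a duplicate, and for several pairs the general copy is active in all tissues while the other is used mainly in the germline. RpS19b is known as a ribosomal protein of early oogenesis, and RpL22-like and RpS10a are known from the testis and germline. RpS19 and RpS10 belong to the small ribosomal subunit, RpL22 and RpL37 to the large subunit.

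The copies of a pair differed in genomic setting in a way that their selection did not use. By Ensembl release 115 (assembly BDGP6, the same coordinates as dm6), all 4 general copies lay on the X chromosome and all 4 restricted copies on an autosome. RpS19b (FBgn0039129) lies on chromosome 3R, 23932729 to 23933530, and RpS10a (FBgn0027494) on 3R, 27652760 to 27653363. RpL22-like (FBgn0034837) lies on chromosome 2R, 23246610 to 23247893, and RpL37-2 (FBgn0034822) on 2R, 23100057 to 23100478. RpS10a and RpL37-2 are annotated as single exons, RpL22-like has 2 separate exon blocks, and RpS19b has 3. The spans of the restricted copies ran from 422 to 1284 bp, and those of the general copies from 1356 to 2571 bp. RpS19a (FBgn0010412) lies at X, 16637894 to 16639249, RpL22 (FBgn0015288) at X, 762560 to 765130, and RpL37-1 (FBgn0030616) at X, 15137870 to 15139367. RpS10a overlaps tau on the opposite strand, and small nucleolar RNA genes lie within RpL22 on the same strand.

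Total counts per library ran from 7351948 to 20162235. Levels are CPM, a library's counts scaled to a common total with TMM (trimmed mean of M values). NGVP16 control 1 stood apart, with 24.6% of its counts on ribosomal protein genes, against 9.67% in NGVP16 control 2, 13.1% and 16.5% in the virgin pair and 7.81% to 12.5% in the knockdowns. Ratios of 2 copies within a library do not depend on how libraries are scaled. Of the targeted genes, Nup154 was at 78.2 and 73.8 CPM in its own knockdown against 144 and 224 in the NGVP16 pair. It was below that pair in the other knockdowns too, at 102.8 and 98.6 CPM in SETDB1 GKD and 72.5 and 109 CPM in wde GKD. The lower level was therefore not particular to Nup154 GKD. The libraries labelled SETDB1 GKD and wde GKD overlapped the NGVP16 pair for egg (31.8 and 37.8 against 34.3 and 70.8 CPM) and wde (74.4 and 92.9 against 43.1 and 142.9 CPM). The virgin pair, at 64.5 and 75.5 CPM, lay above SETDB1 GKD for egg without overlap. For wde the virgin pair, at 85.5 and 94.9 CPM, overlapped wde GKD. All 16 germ cell markers found in the files had counts, although vas and nos were not analysed here, and their summed level was 2069 to 3492 CPM in the knockdowns and 2621 to 6074 CPM in the controls. The 13 oocyte and maternal markers summed to 313.7 to 787.5 CPM against 6704 to 9096 CPM, and the 13 muscle sheath markers to 23340 to 27790 CPM against 3156 to 4245 CPM. The 11 follicle cell markers summed to 1849 to 7238 CPM against 2915 to 10440 CPM. In set means most of this came from the yolk protein genes Yp1, Yp2 and Yp3, except in SETDB1 GKD. There they were at 149, 222 and 149 CPM, beside a summed mean of 2062 CPM. Other follicle cell markers also differed between set means. Fas3 was at 623, 618.5 and 937 CPM in SETDB1, wde and Nup154 GKD against 60.01 and 65.2 in the controls, and ct at 224, 183 and 184 against 43.5 and 24.0. In whole ovaries, more cells of a type and more RNA per cell cannot be told apart.

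RpS19b, the early oogenesis copy of a small subunit protein, was higher in all 6 knockdown libraries than in all 4 young control libraries. It was at 67.0 and 55.4 CPM in SETDB1 GKD, 32.4 and 29.0 CPM in Nup154 GKD, and 17.0 and 16.3 CPM in wde GKD. The NGVP16 pair held 3.94 and 2.74 CPM and the virgin pair 5.19 and 1.85 CPM. The knockdown sets stood in that order with no overlap between neighbours, while the control sets overlapped each other. On the log2 scale the fitted changes against the NGVP16 pair were 4.20 ± 0.47 (SE), 2.33 ± 0.44 and 3.21 ± 0.45 in SETDB1, wde and Nup154 GKD. The corresponding values were 9.36 ± 0.75, 6.03 ± 0.71 and 4.20 ± 0.72 for RpL22-like, and 7.88 ± 0.88, 4.41 ± 0.82 and 2.31 ± 0.84 for RpL37-2. For RpL22-like and RpL37-2 they depend on the prior count, since control counts were near 0.

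Against its general copy RpS19a, RpS19b was again highest in SETDB1 GKD. It had 71.0 and 49.8 counts for every 1000 of RpS19a in SETDB1 GKD, 21.4 and 16.7 in wde GKD, and 18.3 and 15.6 in Nup154 GKD. In the controls it had 1.38 and 2.98 (NGVP16) and 2.70 and 0.895 (virgin). By this ratio wde GKD and Nup154 GKD overlapped, although by CPM they did not. RpS19a itself was at 796 and 979.2 CPM in wde GKD and at 1775 and 1859 CPM in Nup154 GKD. The log2 change of the ratio against the NGVP16 pair was 5.07, 3.41 and 3.26 in SETDB1, wde and Nup154 GKD. Per kilobase of exon, RpS19b gave 11.8% and 8.57% of the pair's signal in SETDB1 GKD and 0.260% and 0.558% in the NGVP16 pair. Per kilobase of coding sequence the SETDB1 GKD values were 6.67% and 4.77%, since the annotated exons of RpS19a (1254 bp) are longer than those of RpS19b (666 bp) while the coding lengths are 468 and 465 bp. RpS19a remained the more abundant copy in every library.

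**Figure D1:**
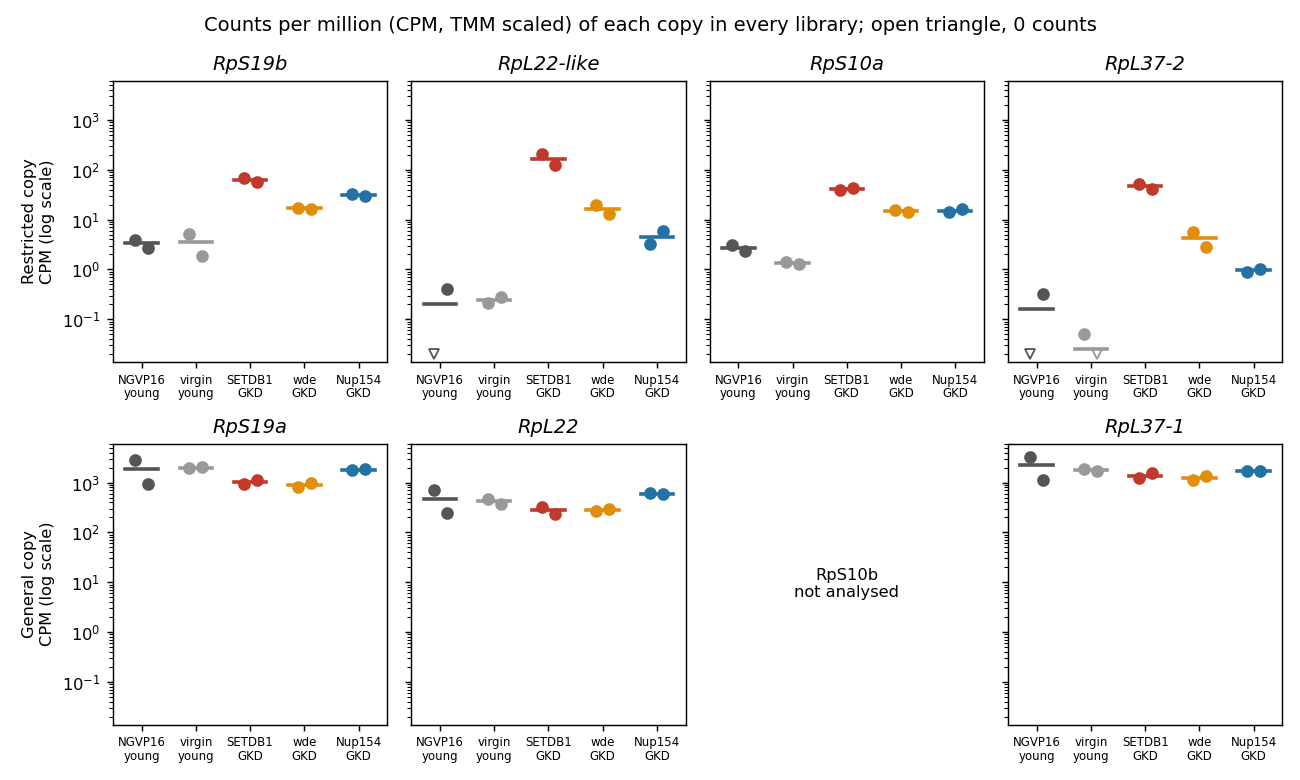
CPM (log scale) of each restricted copy (top) and its general copy (bottom) in every library of the 5 sets, with 1 point per library and a line at the mean of n = 2; open triangles mark libraries with 0 counts. RpS19b, RpL22-like, RpS10a and RpL37-2 are higher in the 6 knockdown libraries than in the 4 controls. The general copies overlap, for RpS19a and RpL37-1 only through NGVP16 control 2.

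RpL22-like, the second copy of a large subunit protein, went from near absence to the highest share of a pair among the copies that were higher in the knockdowns. SETDB1 GKD held 3094 and 1303 counts of it, or 202 and 124.6 CPM, and wde GKD 203 and 131 counts, or 19.6 and 12.9 CPM. Nup154 GKD held 36 and 68 counts, or 3.20 and 5.89 CPM. The NGVP16 pair held 0 and 5 counts and the virgin pair 4 and 2, so no control library exceeded 0.402 CPM. The 3 knockdown sets and the controls did not overlap, and SETDB1 GKD was 10.1 times wde GKD in ratio to RpL22 and 77.9 times Nup154 GKD.

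For every 1000 counts of RpL22 there were 638.9 and 522.5 of RpL22-like in SETDB1 GKD, 74.0 and 44.0 in wde GKD, and 5.25 and 9.92 in Nup154 GKD. In the controls the numbers were 0 and 1.62 (NGVP16) and 0.447 and 0.752 (virgin). The copies have nearly the same annotated exon length, 1232 and 1100 bp. Per kilobase of exon RpL22-like therefore gave 36.3% and 31.8% of the pair in SETDB1 GKD, 6.20% and 3.78% in wde GKD and 0.467% and 0.878% in Nup154 GKD. With the counts of each set pooled, the ratio in SETDB1 GKD was 1030 times that in the NGVP16 pair, with an exact 95% interval of 442 to 3180. The same fold was 101 (42.6 to 312) in wde GKD and 13.1 (5.42 to 41.1) in the Nup154 GKD set. Such intervals, here and for RpL37-2 below, allow for counting error alone, because the libraries of a set were pooled. The spread between libraries is left out. Both genes were chosen for being higher in knockdowns than in the NGVP16 pair, so the intervals are a description and no test. Reads without molecular identifiers are not independent molecules, so the counting error itself may be larger. RpL22 was at 317 and 238.4 CPM in SETDB1 GKD, 265.5 and 293 CPM in wde GKD and 609 and 594 CPM in Nup154 GKD, within or near the 248 to 703 CPM of the controls.

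RpL37-2, the single-exon copy of a zinc-binding protein of the large subunit, had the same order of sets as RpL22-like. SETDB1 GKD held 787 and 432 counts, or 51.4 and 41.3 CPM, wde GKD 57 and 29 counts, and Nup154 GKD 10 and 12 counts. The NGVP16 pair held 0 and 4 counts and the virgin pair 1 and 0. The 3 knockdown sets did not overlap one another or the controls, although Nup154 GKD, at 0.888 and 1.04 CPM, lay close to the 0.322 CPM of NGVP16 control 2. For every 1000 counts of RpL37-1 there were 42.4 and 27.1 of RpL37-2 in SETDB1 GKD, 4.87 and 2.09 in wde GKD, 0.525 and 0.599 in Nup154 GKD, with at most 0.283 in a control library. The pooled fold of this ratio against the NGVP16 pair was 354 (138 to 1300) in SETDB1 GKD, 33.7 (12.7 to 127) in wde GKD and 5.65 (1.92 to 22.6) in the Nup154 GKD set. Against the virgin pair, which held 1 count, it was 1700 (305 to 67400) in SETDB1 GKD. Per kilobase of exon RpL37-2 gave 11.5% and 7.68% of the pair in SETDB1 GKD, and per kilobase of coding sequence 4.24% and 2.75%.

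The handling of reads that match both copies is not given in the sources used here. In the controls the counts bear on how many reads of a general copy were given to its partner. NGVP16 control 1 held 25990 counts of RpL37-1 and 0 of RpL37-2, which allows a share of up to 0.0115% for the restricted copy, and 5531 counts of RpL22 with 0 of RpL22-like, which allows up to 0.0542%. In the other controls RpL22-like had 0.0447% to 0.162% of its pair's counts, and RpL37-2 had up to 0.0283%. For the RpS19 pair the share of RpS19b in the controls was 0.0894% to 0.297%.

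**Figure D2:**
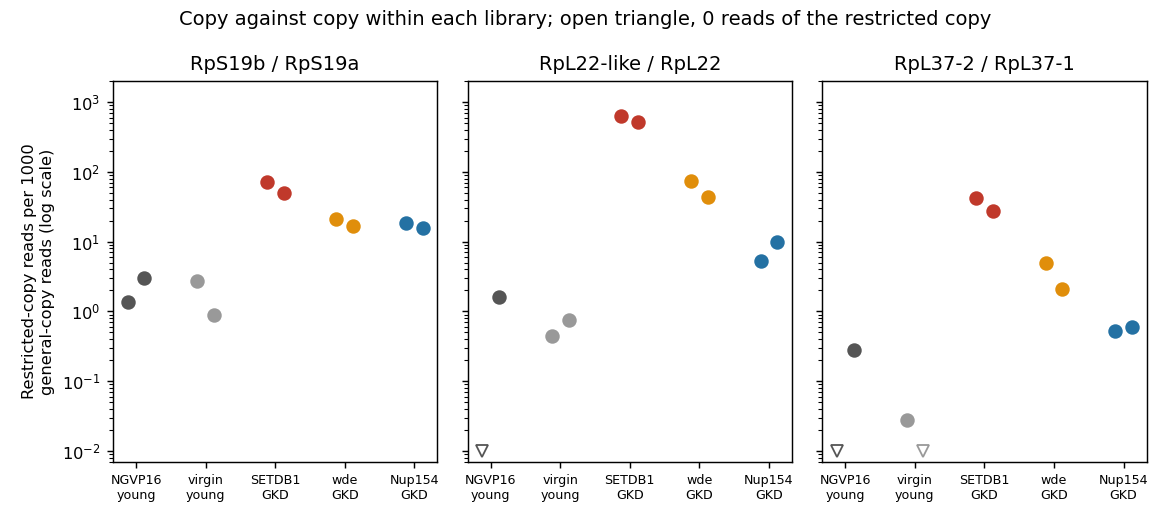
Counts of the restricted copy per 1000 counts of its general copy (log scale) in each of the 2 libraries of every set, for the 3 pairs with both copies in the files; open triangles mark 0 counts of the restricted copy. RpL22-like and RpL37-2 step down from SETDB1 to wde to Nup154 GKD, whereas for RpS19b the wde and Nup154 GKD libraries overlap at 15.6 to 21.4.

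RpS10a, the restricted copy of a further small subunit protein, was at 39.7 and 43.9 CPM in SETDB1 GKD. It was at 15.7 and 14.2 CPM in wde GKD and at 13.9 and 15.9 CPM in Nup154 GKD, so that these sets overlapped. The NGVP16 pair held 3.05 and 2.33 CPM and the virgin pair 1.401 and 1.28 CPM, below all knockdown libraries. Fitted log2 changes against the NGVP16 pair were 3.96 ± 0.33 (SE), 2.47 ± 0.31 and 2.48 ± 0.31 in SETDB1, wde and Nup154 GKD. The gene tau, which overlaps RpS10a on the other strand, was highest in wde GKD at 186 and 179 CPM, against 64.3 and 31.6 in SETDB1 GKD, 36.1 and 35.4 in Nup154 GKD and 1.71 to 18.4 in the controls. Whether the counting used strand is not given in the sources used here, so reads of tau and RpS10a cannot be told apart with certainty. The order of the sets differed between these genes.

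By CPM the 4 restricted copies thus showed different orderings across the knockdown sets. RpL22-like and RpL37-2 were at 9.96% and 9.03% of their SETDB1 GKD level in wde GKD, and at 2.78% and 2.08% in Nup154 GKD. RpS19b was at 27.3% in wde GKD and 50.2% in the Nup154 GKD set, and RpS10a at 35.7% and 35.8%. In ratio to RpS19a the wde and Nup154 GKD libraries overlapped for RpS19b, so its order by CPM did not hold by that measure. All 4 restricted copies had all knockdown libraries above all controls, as did 19.9% of the 10105 genes tested. Since the members were chosen for levels in these libraries, nothing is read from that count.

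**Figure D3:**
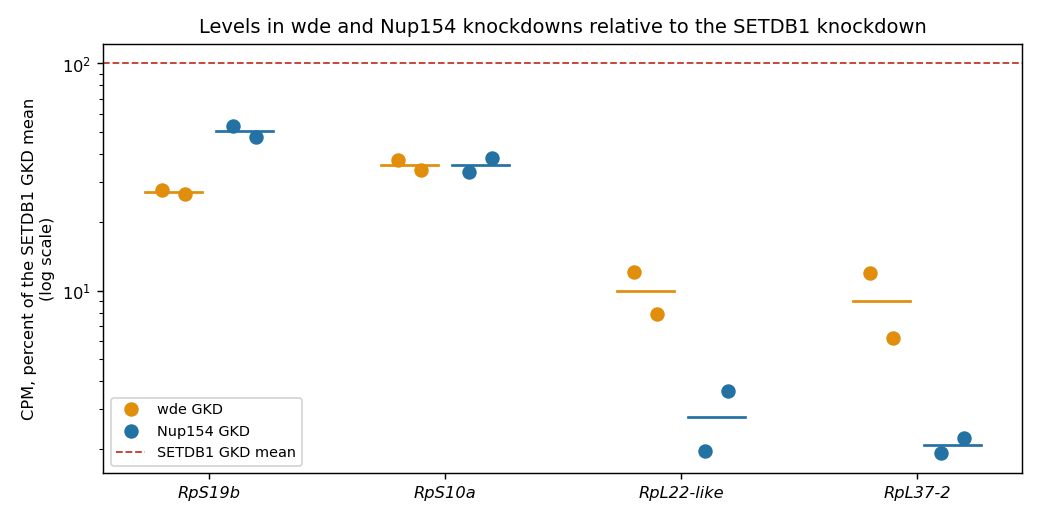
CPM in the wde and Nup154 knockdown libraries as a percent of the SETDB1 knockdown mean (log scale, with the SETDB1 mean as a dashed line), with 1 point per library and a line at the mean of n = 2. RpL22-like and RpL37-2 are lower in Nup154 GKD (2.78% and 2.08%) than in wde GKD (9.96% and 9.03%), RpS19b is higher there (50.2% against 27.3%), and RpS10a is alike in both. In ratio to RpS19a these sets overlap for RpS19b.

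The restricted copies were also set against the summed germ cell markers, a sum of genes that differ in opposite directions. In set means orb was at 862.5 and 1147 CPM in the controls and 138 to 344 in the knockdowns, while tud was at 384 and 287 against 517 to 640. The sum is therefore no measure of germ cell content. For every 1000 CPM of those markers, RpS19b had 6.23 to 19.2 CPM in the knockdown libraries and 0.306 to 1.503 in the controls. RpL22-like had 57.9 and 36.8 in SETDB1 GKD, 9.50 and 4.92 in wde GKD, 1.11 and 2.02 in Nup154 GKD, with at most 0.0663 in a control. The part that the lower oocyte marker sum given above has in these levels was not tested. The 16 testis-enriched markers summed to 43.9 to 74.9 CPM in the knockdowns and 43.3 to 65.8 CPM in the controls, a sum in which members differed in opposite directions. In set means bol was at 40.0, 37.2 and 22.6 CPM in SETDB1, wde and Nup154 GKD against 12 and 12.2 in the controls, aly at 3.03, 1.07 and 0.355 against 0.0402 and 0.0260, and twe at 11.1, 9.79 and 6.20 against 34.1 and 48.3. Of the same list dj, Mst87F, ProtA, ProtB and soti, genes of the late male germline, had 0 counts in all controls and in Nup154 GKD and at most 0.63 CPM in the set means of SETDB1 and wde GKD. Others of the list were above that in wde GKD, with can at 1.80, sa at 1.02, Mst98Ca at 0.727 and nht at 0.678 CPM. In the control set means these were at most 0.121 CPM.

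The general copies were tested where their selection had used no value. Between knockdowns, 0 of the 3 found in the files passed the quasi-likelihood F test of edgeR at an adjusted p of 0.05 (Benjamini-Hochberg over all genes), in any of the 3 comparisons. Of all genes 0.287% passed for SETDB1 against wde GKD, 3.68% for SETDB1 against Nup154 GKD and 1.42% for wde against Nup154 GKD. DESeq2 also called 0 of them in each, and at an unadjusted p under 0.05 only RpL22 was lower, in both SETDB1 and wde GKD against Nup154 GKD. RpL22 differed from Nup154 GKD by -1.12 ± 0.44 on the log2 scale in SETDB1 GKD (edgeR adjusted p = 0.182) and by -1.11 ± 0.44 in wde GKD (edgeR adjusted p = 0.233). RpS19a was at -1.03 ± 0.47 in wde against Nup154 GKD (edgeR adjusted p = 0.287). Against the NGVP16 pair the general copies had log2 changes of -0.87 to -0.70 in SETDB1 GKD, -1.09 to -0.77 in wde GKD and -0.37 to 0.34 in the Nup154 GKD set. Against the virgin pair the changes were -0.96 to -0.40, -1.17 to -0.53 and -0.13 to 0.51 in the same order, with RpL22 the highest in Nup154 GKD. The NGVP16 libraries themselves differed about 3-fold in RpS19a, at 2850 and 919 CPM.

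The other cytoplasmic ribosomal protein genes were tested in all contrasts. Of 80 listed, 76 were found and 73 tested. Against the NGVP16 pair their median log2 change was -0.70, -1.01 and -0.66 in SETDB1, wde and Nup154 GKD, beside 0.11, 0.15 and 0.12 over all genes tested. In SETDB1 GKD 2 of the 73 passed as lower and 0 as higher, beside 9.51% of all genes lower and 14.6% higher. In wde GKD 3 passed as lower and 0 as higher, beside 14.2% and 21.3%, and in Nup154 GKD 2 and 0, beside 16.1% and 20.8%. DESeq2 called 6, 17 and 11 lower and 0 higher in the 3 knockdowns, and 7, 17 and 8 had an unadjusted p under 0.05 in edgeR. Without NGVP16 control 2, where the library rich in ribosomal protein counts was the only control, 65, 71 and 61 were lower. Without NGVP16 control 1 SETDB1 GKD had 1 call, wde GKD 1 and Nup154 GKD 4, of which 3 were higher. Leaving out either library of a knockdown set left 0 calls in it. Against the virgin pair 2, 3 and 0 were lower and 0 higher in SETDB1, wde and Nup154 GKD, beside 13.2%, 17.0% and 16.2% of all genes lower. The highest change among the 73 genes against the NGVP16 pair was 0.04, -0.39 and 0.17 in SETDB1, wde and Nup154 GKD. Every value of RpS19b, RpL22-like, RpS10a and RpL37-2 lay above these. The members were chosen for levels in these libraries, so nothing is read from that gap.

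**Figure D4:**
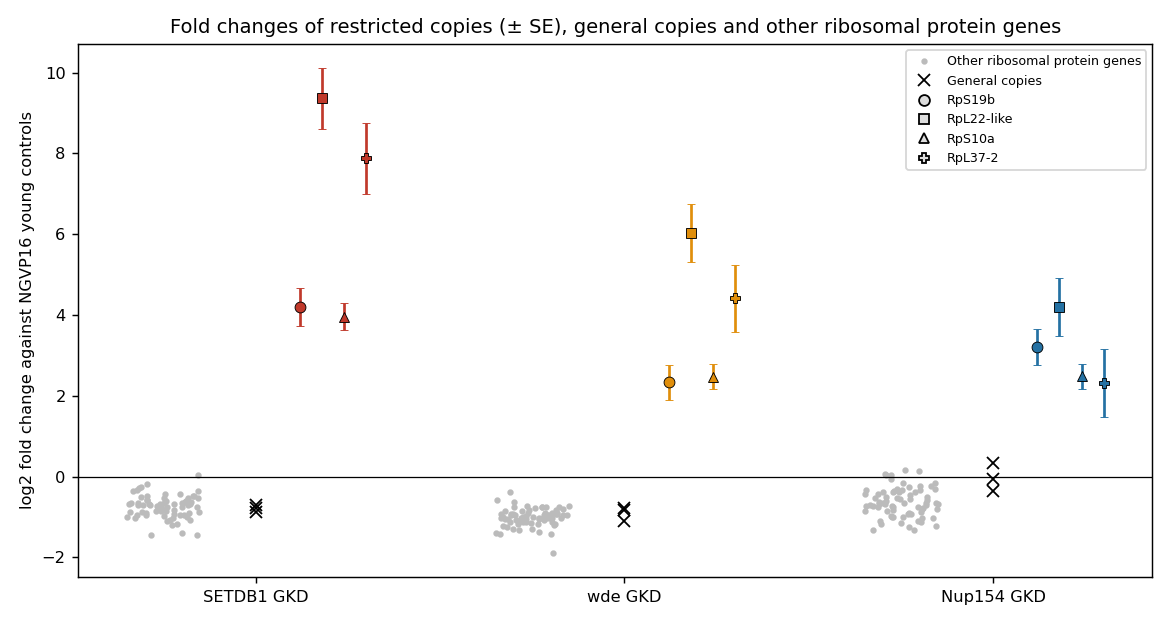
Log2 fold change against the NGVP16 pair in each knockdown for the 4 restricted copies (symbols, with ± SE), the 3 general copies (crosses) and the 73 other ribosomal protein genes tested (grey points, spread sideways for view). In SETDB1 GKD the other genes lie between -1.45 and 0.04, and RpS10a, the lowest of the restricted copies, is at 3.96. The members were chosen for levels in these libraries, so the gap is a description.

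RpS2, a small subunit protein, was lower in SETDB1 GKD (-1.45 ± 0.43, edgeR adjusted p = 0.0407) and in wde GKD (-1.37 ± 0.43, edgeR adjusted p = 0.0375). RpS14b, part of a further pair, was lower in all 3 knockdowns, by -1.44 ± 0.36, -1.42 ± 0.36 and -1.17 ± 0.35 (edgeR adjusted p = 0.0201, 0.0156 and 0.0297). Against the virgin pair RpS14b passed in no knockdown, at -0.98 ± 0.35, -0.96 ± 0.35 and -0.71 ± 0.35 (edgeR adjusted p = 0.0578, 0.0531 and 0.131). The genes that passed there were RpS2 and RpL3 in SETDB1 GKD and RpS2, RpL3 and RpL41 in wde GKD. RpL41, one of the smallest proteins of the ribosome, was lower in wde GKD (-1.89 ± 0.64, edgeR adjusted p = 0.0485), and RpL21 in Nup154 GKD (-1.32 ± 0.44, edgeR adjusted p = 0.0429). In CPM, RpS2 and RpS14b were the 2 of the 73 with all knockdown libraries below all controls, as were 13.9% of all genes tested. Between knockdowns 0 of the 73 passed in edgeR in any comparison. At an unadjusted p under 0.05 there were 0 for SETDB1 against wde, 3 for SETDB1 against Nup154 and 2 for wde against Nup154 GKD, and DESeq2 called 0, 1 and 0.

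Other duplicated ribosomal protein genes did not show the pattern of RpL22-like. The members were chosen for levels in these libraries and these genes were not, so the contrast is a description. RpL10Aa had 0 counts in all 10 libraries, beside at least 8395 of RpL10Ab. RpS28a had 6 counts in all, beside at least 10098 of RpS28b in each library. Its counts were 1 in SETDB1 GKD, 2 in wde GKD, 3 in Nup154 GKD and 0 in the controls, too few to compare. RpS28-like had 2 counts, both in NGVP16 control 2. RpS15Ab had 18.6 to 27.1 counts for every 1000 of RpS15Aa in the knockdowns and 19.6 to 26.03 in the controls, which overlap. RpL34a had 282 to 455 for every 1000 of RpL34b in the knockdowns and 337 to 381 in the controls, which also overlap. RpS14b had 304 to 372 for every 1000 of RpS14a in the knockdowns and 434 to 727 in the controls, with no overlap. The genes of the RpS14 pair are near-identical neighbours, so reads may have been split between them, and this ratio is uncertain.

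The young control sets were compared with each other, a contrast that the choice of members had not used, although its NGVP16 libraries had been. Of the 7 members 0 passed in edgeR, where 1.64% of all genes did, and DESeq2 called 0. With so few members and so low a share, nothing is read from that count. At an unadjusted p under 0.05 RpS10a was lower in the virgin pair, at -0.98 ± 0.32 (edgeR adjusted p = 0.157). RpS19b was at 0.14 ± 0.44 (edgeR adjusted p = 0.897) and RpL22-like at -0.04 ± 0.93 (edgeR adjusted p = 0.997). RpL37-2 was at -2.05 ± 1.23 (edgeR adjusted p = 0.402). RpL22-like had 6 counts against 5 and RpL37-2 had 1 against 4, so no difference was detectable for either at this depth. Without NGVP16 control 2, with the lone control assumed to vary like the other sets, RpS10a (-1.16, edgeR adjusted p = 0.0358) and RpL37-1 (-0.86, edgeR adjusted p = 0.0279) passed as lower. Without NGVP16 control 1 neither passed: RpS10a was at -0.85 (edgeR adjusted p = 0.209) and RpL37-1 turned to 0.60 (edgeR adjusted p = 0.235).

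Genes with the level profile most like each restricted copy were named by the root mean square difference of log2(CPM + 0.5), each profile centred on its own mean, over the 10 libraries. Nearest to RpL22-like were ATPsynepsilonL, a copy of an ATP synthase subunit (0.942), gNacalpha, a germline subunit of the nascent polypeptide-associated complex (1.04), and eIF3f2, a duplicate of an initiation factor subunit gene (1.21). They stood at 52.8, 198 and 25.2 CPM in SETDB1 GKD, at 27.9, 94.2 and 1.12 CPM in wde GKD and at 2.73, 19.2 and 0.881 CPM in Nup154 GKD. Nearest to RpL37-2 were eIF3f2 (0.615), SkpE, a member of the Skp family of ubiquitin ligase subunits (0.687), and Taf12L, a variant of a general transcription factor subunit (0.774). RpL22-like and RpL37-2 were at 0.776 from each other.

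The other restricted copies had other neighbours. RpS19b was nearest to Spn43Aa, a serpin (0.386), corn (0.538) and tinc (0.546), and at 0.463 from RpS10a but 1.69 from RpL22-like. RpS10a was nearest to the muscle actin gene Act87E (0.383), Spn43Aa (0.403) and Ggamma30A, a G protein subunit (0.412). Act87E is 1 of the 13 muscle markers above, and their part in the level of RpS10a was not tested.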

How the data were processed

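Each library had a deposited file of unnormalized counts, whole numbers listed by FlyBase identifier. Per the submitters' processing notes, HISAT2 2.1.0, featureCounts 1.4.6 and DESeq2 1.24.0 were used with the genome build dm6. The sources used here do not give their roles, the annotation release or the strand setting. Names and lengths came from Ensembl release 115. The adult control pair was left out, and 1 further pair of duplicated genes is not reported here. Of 17023 genes, 10105 passed filterByExpr, all 7 members described among them. Libraries were scaled by TMM and fitted with edgeR 4.0.16 (glmQLFit, robust, 1 mean per set, R 4.3.3), with 5 residual degrees of freedom. The SE was worked back from the F statistic. Ratios of copies use the summed CPM of each set. Alternatives were DESeq2 1.42.0, other scalings and filters, the virgin pair as control, a replicate block and leaving out each library. Scripts were tested on simulated data. The levels of replicates 1 and 2 of each set are given singly. Members and lists were chosen with earlier results of these data known. Besides members, the text names the 3 nearest genes of each restricted copy with at least 10 CPM in a set, leaving out noncoding genes and symbols that are only annotation numbers, the other duplicated ribosomal protein genes, and the 3 targets. RpS2, RpL3, RpL41, RpL21 and tau fall outside this rule and were named after their values were seen.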

Additional observations from a re-analysis of the deposited data

How the results depend on the processing

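The changes of the 3 pair ratios against the NGVP16 pair were recomputed with the virgin pair as control, as means of library ratios and without single libraries. Their direction follows from the choice of members and is no sign of stability. Leaving out single libraries gave log2 changes (SETDB1, wde and Nup154 GKD in turn) of 4.32 to 5.43, 2.66 to 3.77 and 2.51 to 3.61 for RpS19b. It gave 8.5 to 10.56, 5.16 to 7.45 and 2.22 to 4.55 for RpL22-like, and 6.9 to 9.19, 3.57 to 6.07 and 0.99 to 3.05 for RpL37-2. For RpL22-like and RpL37-2 the lowest values were those without NGVP16 control 1. Those without control 2 are lower bounds against a floor of 3 counts, since control 1 held 0.

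The number of other ribosomal protein genes called varied with the processing. It was 2, 3 and 2 in SETDB1, wde and Nup154 GKD against the NGVP16 pair, and leaving out single libraries gave 0 to 65, 0 to 71 and 0 to 61. DESeq2 called 6, 17 and 11, and 1 for SETDB1 against Nup154 GKD, where edgeR called 0. Without a filter on low counts 6 were called for wde and 6 for Nup154 GKD, and with the adult pair added 10 and 6. In Nup154 GKD library sizes without ribosomal protein genes gave 5 and the virgin pair as control gave 0. Virgin against NGVP16 gave 0 to 25. With the replicate number as a block, in the 8 numbered libraries, 0, 1 and 0 were called, against 2 without it in each knockdown. Deviations of same-numbered libraries correlated at -0.179 to 0.016 in 5 of 6 pairs of sets and at 0.396 between wde and SETDB1 GKD, so the numbers were not taken to pair the samples, and shared handling of those 2 sets was not tested. A crossed block, added after seeing the data, called 1 in SETDB1 GKD and 3 in wde GKD. The cause of these changes was not tested. Depth limits RpL22-like and RpL37-2 in the controls, at 0 to 5 counts per library. No ratio could be given for RpS10a, and no sequences of the copies were used here.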
